A study of Mus musculus with 2 samples.

Results

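Genes that depend on Wnt signalling around the central vein of the liver lobule were compared between Pgrmc1 KO and wild-type (WT) liver. The 10 genes are *Glul*, *Oat*, *Rhbg*, *Slc1a2*, *Lect2*, *Axin2*, *Lgr5*, *Tbx3*, *Rnf43* and *Znrf3*, chosen by symbol as targets of beta-catenin in pericentral hepatocytes, with P450 genes left out, and all 10 were found among the 24054 genes of the deposited table. The rule itself uses no measured value, but the genes were proposed with earlier results of these data known. Livers came from male mice aged 8 to 12 weeks, of the strain C57BL/6 by their labels; the floxed line was made in C57BL/6N. The KO mice (Pgrmc1 -/Y) lacked the gene in the whole body after a floxed allele was recombined by Sox2-Cre, and WT mice were the controls; whether the latter carried Cre is not given in the sources used here. RNA of 5 mice per genotype (2.5 μg each) was pooled before library preparation, so that each genotype is 1 library of whole liver.

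In the liver lobule, blood runs from the portal vein to the central vein, and hepatocytes along this path use different genes. Endothelial cells of the central vein release Wnt ligands and R-spondin, which keep beta-catenin from being destroyed in the nearest hepatocytes. Beta-catenin then enters the nucleus and, with TCF/LEF factors, turns on pericentral genes. Glutamine synthetase, which traps the last ammonia before blood leaves the lobule, is the classical one, and several targets, such as *Axin2*, *Rnf43* and *Znrf3*, feed back to damp the signal.

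To show what a TCF/LEF core looks like in these genes, the 250 bases before an annotated start site are printed for 3 members that had nearly the same change, 2 with a match and 1 without. The search used the letters CTTTGA and the longer CTTTGAT, which contains the first, on both strands (TCAAAG and ATCAAAG on the other). Capitals mark the matches. The sequences are from RefSeq on GRCm38.p6, 5′ to 3′ on the strand of the gene. They lie at chr13:56548539-56548788 on the minus strand for *Lect2*, chr2:102706188-102706437 on the plus strand for *Slc1a2* and chr7:132576399-132576648 on the minus strand for *Oat*. For *Lect2* the start site used lies just inside the span that RefSeq gives for the gene, which ends at 56548559. For *Slc1a2* it is an internal start site, far inside the span, which begins at 102658239.
Lect2: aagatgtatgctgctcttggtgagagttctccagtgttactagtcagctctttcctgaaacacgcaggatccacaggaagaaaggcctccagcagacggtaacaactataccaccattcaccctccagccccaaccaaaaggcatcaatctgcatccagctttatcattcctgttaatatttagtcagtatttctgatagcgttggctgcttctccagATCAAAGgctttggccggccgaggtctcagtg
Slc1a2: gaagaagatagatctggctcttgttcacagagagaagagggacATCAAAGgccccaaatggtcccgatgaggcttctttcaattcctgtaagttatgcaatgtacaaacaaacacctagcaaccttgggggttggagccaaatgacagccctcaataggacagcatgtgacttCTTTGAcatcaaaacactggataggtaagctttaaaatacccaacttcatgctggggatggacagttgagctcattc
Oat: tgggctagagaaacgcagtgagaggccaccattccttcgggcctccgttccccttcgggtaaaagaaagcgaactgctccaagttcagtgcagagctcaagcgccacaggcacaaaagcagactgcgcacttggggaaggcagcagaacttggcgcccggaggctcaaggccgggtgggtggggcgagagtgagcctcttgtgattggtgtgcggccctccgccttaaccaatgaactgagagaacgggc

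A promoter window (250 bases before to 50 after a start site) was listed for 6 of the 10 genes, in 7 windows. CTTTGA was found for *Lect2* and *Slc1a2* and for 16.0% of the 32851 windows of all genes. CTTTGAT was found for the same pair and for 3.73% of all windows. In *Lect2* the match begins 32 bases before the start site, and in *Slc1a2* the matches begin 207 and 77 bases before it. The windows of *Glul*, *Oat*, *Axin2* and *Rnf43* held none of these letters. A match is a description of letters, not of binding.

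Levels are given in TPM (each gene's share of the transcript pool, corrected for gene length), as the authors deposited them. Changes are log2((KO TPM + 1)/(WT TPM + 1)), which understates the change of low genes. The authors also gave a mean for each library, in which the reads of a gene are scaled by a size factor. The 95% intervals below are exact Clopper-Pearson intervals of the log2 ratio of those means. They rest on estimated reads and include no error other than that of counting. With 1 pooled library per genotype there is no replicate check and no p-value, and differences between mice were not measured. Estimated reads on genes summed to 22086692 in KO and 29710419 in WT. *Pgrmc1* itself (Entrez gene 53328, chromosome X) stood at 0.68 TPM in the KO pool and 949.49 TPM in the WT pool, which follows the labels.

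Of the 10 genes, 9 were higher in the KO library and 1, *Znrf3*, was lower (with the authors' means it was 0.02 higher on the log2 scale), and the median log2 change was 0.14. Among the 11623 genes whose mean reached 1 TPM, 45.8% were higher in KO and the median was -0.01. A fold of at least 1.4 was reached by *Tbx3*, *Rnf43* and *Rhbg*, against 1.21% of all such genes, and a fold of at most 0.6 by 0 of the 10, against 0.301%. With a limit of 1.2-fold, *Lgr5* was added on the upper side, against 5.39% of all genes, and the lower side stayed at 0, against 5.51%. Every one of the 10 had at least 2.47 TPM in both libraries, so that none passed the minimum of 1 TPM only through the library where it was high. *Rhbg* was just inside the limit at 1.41-fold, and *Lgr5* just outside at 1.31-fold.

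**Figure D1:**
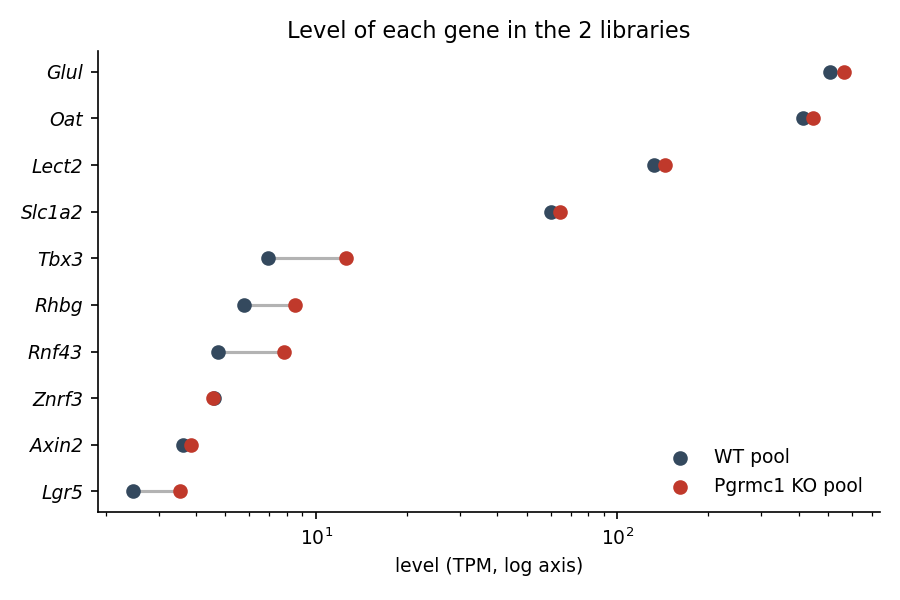
Level of each gene in the WT pool (dark) and the Pgrmc1 KO pool (red) on a log axis in TPM, 1 point per library, joined by a line. The gap is widest for Tbx3, at 6.90 and 12.52 TPM, and the points of Znrf3, at 4.58 and 4.54 TPM, cover each other.

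The 10 genes fell into 2 levels of abundance. *Glul*, *Oat*, *Lect2* and *Slc1a2* had means from 62.5 to 537 TPM, and the other 6 had means of at most 9.71 TPM. The order of the 10 was the same in both libraries, from *Glul* at the top through *Oat*, *Lect2*, *Slc1a2*, *Tbx3*, *Rhbg*, *Rnf43*, *Znrf3* and *Axin2* to *Lgr5*. In WT, *Rnf43* and *Znrf3* were close neighbours at 4.72 and 4.58 TPM, and with no replicate their order there cannot be set against a spread. The 10 levels summed to 1262.02 TPM in the KO pool and 1140.90 TPM in the WT pool, of which *Glul* and *Oat* made up 80.2% and 80.6%. The sum thus hides the low genes, which came to 40.80 TPM in the KO pool and 28.05 TPM in the WT pool.

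The enzymes and transporters of glutamate and ammonia come first. *Glul* (Entrez gene 14645; chromosome 1, 153899929 to 153909723 of GRCm38) encodes glutamine synthetase, which joins ammonia to glutamate. It was at 566.28 TPM in the KO pool and 507.25 TPM in the WT pool, which is a log2 change of 0.16 (interval 0.15 to 0.20 on 21055 and 25245 estimated reads). *Oat* (18242; chromosome 7, 132557475 to 132576398), the aminotransferase that turns ornithine toward glutamate, was at 446.39 TPM in the KO pool and 412.52 TPM in the WT pool, a change of 0.11 (0.09 to 0.16). *Slc1a2* (20511; chromosome 2, 102658239 to 102790784), a carrier that takes up glutamate, was at 64.70 TPM in the KO pool and 60.27 TPM in the WT pool, a change of 0.10 (0.05 to 0.15). In percent of the WT level, *Glul* was 11.6% higher in KO, *Oat* 8.21% and *Slc1a2* 7.35%, and the 3 intervals lie above 0.

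*Rhbg* (58176; chromosome 3, 88242874 to 88254739), an ammonium channel of the Rhesus family, differed more. It was at 8.52 TPM in the KO pool and 5.76 TPM in the WT pool, which is a log2 change of 0.49 with an interval of 0.29 to 0.87 on 208 and 188 estimated reads. This interval does not overlap those of *Glul*, *Oat* and *Slc1a2*. In the GENCODE annotation, 59.4% of the 100-base windows of *Rhbg* transcripts are also in *Gm38392*, a gene model on the same strand, and *Gm38392* was not analysed here, so that the value of *Rhbg* is uncertain. Such shared windows made up 1.77% for *Glul* and 0 for each of the other 8 genes.

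*Lect2* (16841; chromosome 13, 56529734 to 56548559), which encodes a protein that hepatocytes secrete, was at 143.85 TPM in the KO pool and 132.81 TPM in the WT pool. Its log2 change of 0.11 (interval 0.04 to 0.24) was close to those of *Oat* and *Slc1a2*. The log2 changes of the 4 abundant genes thus all lay between 0.10 and 0.16.

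Feedback genes of the pathway differed among themselves. *Rnf43* (207742; chromosome 11, 87663087 to 87735539) and *Znrf3* (407821; chromosome 11, 5276329 to 5444847) encode related ubiquitin ligases that remove Frizzled receptors from the cell surface. *Rnf43* was at 7.84 TPM in the KO pool and 4.72 TPM in the WT pool, which is a log2 change of 0.63 (interval 0.54 to 0.94 on 457 and 369 estimated reads). *Znrf3* was at 4.54 TPM in the KO pool and 4.58 TPM in the WT pool, which is a log2 change of -0.01 (-0.16 to 0.20 on 427 and 569 estimated reads). The level of *Rnf43* over that of *Znrf3*, both in TPM, was 1.73 in KO and 1.03 in WT, and the intervals of their changes do not overlap. *Axin2* (12006; chromosome 11, 108917828 to 108950783), a scaffold of the complex that destroys beta-catenin and a widely used readout of the pathway, was at 3.85 TPM in the KO pool and 3.62 TPM in the WT pool. Its log2 change was 0.07, and its interval of -0.16 to 0.36 on 221 and 279 estimated reads holds 0, as does that of *Znrf3*. At this depth a difference of *Axin2* between the libraries was not detectable, and in percent of WT the interval runs from -10.7% to 28.1%.

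*Lgr5* (14160; chromosome 10, 115450314 to 115587780), a receptor for R-spondin that marks pericentral hepatocytes, was the lowest of the 10. It stood at 3.53 TPM in the KO pool and 2.47 TPM in the WT pool, which is a log2 change of 0.38 (interval 0.25 to 0.80 on 225 and 211 estimated reads). The ratio of TPM with nothing added was 1.43 for *Lgr5*, so that its place below the limit of 1.4 rests on the 1 TPM added. *Lgr4*, the broadly expressed relative, was at 34.90 TPM in the KO pool and 35.78 TPM in the WT pool, a change of -0.03 (-0.10 to 0.05). *Lgr4* was 9.89 times the level of *Lgr5* in KO and 14.5 times in WT.

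*Tbx3* (21386; chromosome 5, 119670534 to 119684724), a T-box transcription factor that represses its targets, had the largest difference of the 10. It was at 12.52 TPM in the KO pool and 6.90 TPM in the WT pool, which is a log2 change of 0.78 (interval 0.72 to 1.03 on 805 and 593 estimated reads). A higher change was found for 0.490% of genes whose mean reached 1 TPM. Its exons overlap those of an antisense gene, *Tbx3os1*, as do those of *Axin2* with *Gm11670*, of *Glul* with *Teddm2* and of *Slc1a2* with *Gm13872*; these antisense genes were not analysed here. The kit keeps strand, and the authors ran RSEM with its option for strand, whose setting is not given in the sources used here.

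**Figure D2:**
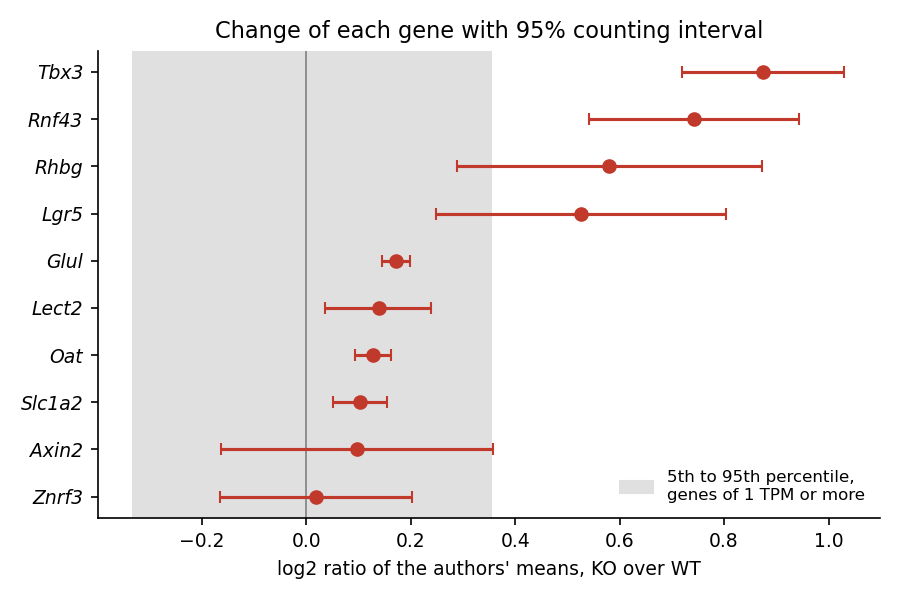
Change of each gene as the log2 ratio of the authors' means, KO over WT (points), with the 95% Clopper-Pearson interval from estimated reads (bars, counting error only). The band spans the 5th to the 95th percentile, on the same scale, of genes whose mean reached 1 TPM, -0.33 to 0.35; Tbx3, Rnf43, Rhbg and Lgr5 lie to its right, while the bars of Axin2 and Znrf3 cross 0.

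Counting error thus left 8 of the 10 genes with an interval above 0 and 2 with an interval that holds 0. The share of all genes with an interval above 0 was not counted, so the 8 cannot be set against a background. Intervals are narrow for abundant genes, which can lie above 0 at a small change. The larger differences of the 10 were all among the low genes. Of the 6 with a mean of 1 to 20 TPM, 3 passed 1.4-fold, against 1.23% of all genes at that level, and 4 passed 1.2-fold, against 6.64%. The 4 genes whose mean reached 20 TPM were all higher in KO, against 41.2% of genes at that level, and 0 of them passed 1.2-fold, against 2.91%.

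**Figure D3:**
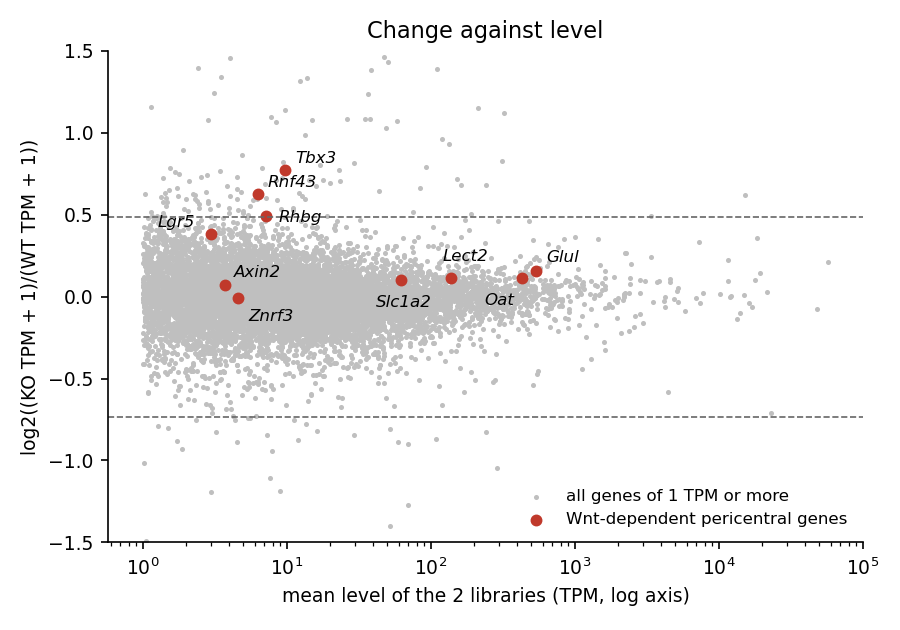
Change, as log2((KO TPM + 1)/(WT TPM + 1)), against the mean level in TPM (log axis) for all genes whose mean reached 1 TPM (grey, 26 genes lie outside the range drawn) and for the 10 genes (red). Dashed lines mark folds of 1.4 and 0.6; Tbx3, Rnf43 and Rhbg lie above the upper line, and the 4 abundant genes lie just above 0.

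Other parts of the Wnt pathway were described from gene lists, each by those of its members whose mean reached 1 TPM. Of 14 genes for Wnts, R-spondins and Wnt release, 5 had that level, 4 of them above 0, and the median change was 0.13, which was 0.01 over all 14. The central vein ligand *Wnt2* was at 2.89 TPM in the KO pool and 2.57 TPM in the WT pool (interval -0.27 to 0.63), and *Wnt9b* was at 0.45 and 0.49 TPM (-0.86 to 0.65). *Rspo3*, the R-spondin of the central vein, was at 4.97 TPM in the KO pool and 4.34 TPM in the WT pool (-0.11 to 0.53). All of these intervals hold 0, so that no difference in the ligands was detectable on 27 to 181 estimated reads. The list ran from -0.17 for *Wls*, which carries Wnts to the surface, to 0.17 for *Wnt5b*.

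Receptors other than *Lgr5* had a median of -0.01 over 11 genes, of which 5 were above 0, from -0.09 for the co-receptor *Lrp6* to 0.26 for *Fzd8*. Beta-catenin, the complex that destroys it and Dishevelled had a median of -0.06 over 15 genes, of which 1 was above 0, from -0.17 for *Fbxw11* to 0.02 for *Btrc*, both of which mark beta-catenin for destruction. *Ctnnb1*, the gene of beta-catenin, was at 118.98 TPM in the KO pool and 125.81 TPM in the WT pool, which is a log2 change of -0.08 (interval -0.12 to -0.02). TCF/LEF factors and their co-factors had a median of -0.08 over 13 genes, of which 5 were above 0, from -0.22 for the co-repressor *Tle4* to 0.24 for its relative *Tle3*. *Tcf7l2*, the main such factor of the liver, was at 5.57 TPM in the KO pool and 5.09 TPM in the WT pool, a change of 0.11 (-0.11 to 0.35). In these lists 0 genes passed 1.2-fold in either direction, against 5.39% upward and 5.51% downward of all genes whose mean reached 1 TPM.

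General targets of beta-catenin other than the 10 had a median log2 change of 0.23 over the 9 of 18 with enough signal. Of the 9, 8 were above 0, against 45.8% of all genes whose mean reached 1 TPM. Over all 18 the median was 0.11, and over the 9 it was 0.38 with 0.1 TPM added in place of 1. *Myc*, a growth-promoting transcription factor with many other inputs, was highest at 5.89 TPM in the KO pool and 3.16 TPM in the WT pool, a change of 0.73 (interval 0.59 to 1.26). It was the 1 gene of the 9 past 1.4-fold, against 1.21% of all genes whose mean reached 1 TPM. With a limit of 1.2-fold, 4 of the 9 passed upward, against 5.39%, and 0 downward, against 5.51%. *Notum*, a secreted enzyme that inactivates Wnts, was at 24.97 TPM in the KO pool and 18.61 TPM in the WT pool, a change of 0.41 (0.28 to 0.60 on 650 and 647 estimated reads). *Nkd1*, an inhibitor that acts through Dishevelled, was at 1.55 TPM in the KO pool and 1.17 TPM in the WT pool, and its interval of -0.02 to 0.86 holds 0. *Sox9*, also a marker of bile ducts, was lowest at -0.15. Wnt inhibitors had a median of 0.18 over 4 of 15 genes, 3 above 0, down to -0.09 for *Frzb*, and of 0.01 over all 15. That list shares *Notum* with the targets, and also genes under 1 TPM that count only over all 15 and all 18. The lists of receptors and of TCF/LEF factors share genes with the targets too.

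Hepatocyte genes of both zones frame these values. Of 27 other pericentral genes, 17 were above 0, 0 passed 1.4-fold or 0.6-fold, 2 passed 1.2-fold upward and 2 downward. Their median log2 change was 0.04, from -0.67 for the glutathione transferase *Gstm3* to 0.31 for *Aldh1a1*, which oxidizes retinal. Of 25 periportal genes, 8 were above 0, 0 passed 1.2-fold upward and 5 passed it downward, with a median of -0.09, from -0.51 for *Apoa4* to 0.12 for *Vtn*. Over all genes whose mean reached 1 TPM, 45.8% were above 0, 5.39% passed 1.2-fold upward and 5.51% downward. The shares past 1.4-fold and 0.6-fold were 1.21% and 0.301%. Of 23 other genes of glutamate, ornithine and ammonia, 16 had enough signal and 5 of those were above 0, with a median of -0.02, and the lowest was the arginine carrier *Slc7a2* at -0.26. *Gls2*, the liver glutaminase that breaks glutamine down in periportal cells, was at 162.51 TPM in the KO pool and 182.68 TPM in the WT pool, a change of -0.17 (interval -0.21 to -0.10). The level of *Glul* over that of *Gls2* was 3.48 in KO and 2.78 in WT. *Gls2* was picked after its values were seen, so this ratio is a description of that pair only.

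**Figure D4:**
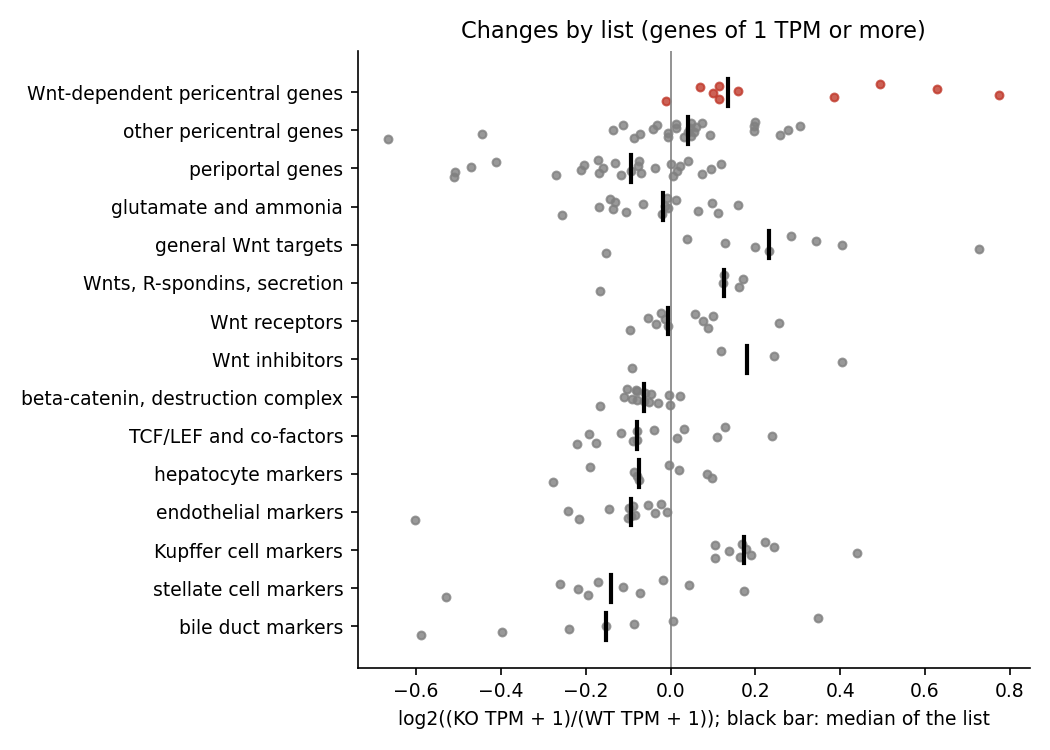
Change of every gene whose mean reached 1 TPM, as log2((KO TPM + 1)/(WT TPM + 1)), for the 10 genes (red) and for 14 related lists (grey); the black bar is the median of each list. The medians run from -0.15 for bile duct markers to 0.23 for general Wnt targets, and that of the 10 genes is 0.14.

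Markers of the cell types in the liver also differed between the libraries. Hepatocyte markers had a median change of -0.07 (9 genes, 3 above 0, from -0.28 for *Tat* to 0.10 for *Fga*) and summed to 76927 TPM in the KO pool and 79772 TPM in the WT pool. For endothelial markers the median was -0.09 (0 of 13 genes above 0, from -0.60 for *Lyve1* to -0.01 for *Stab1*) and summed to 222.93 and 244.31 TPM, while *Wnt2* and *Rspo3*, which cells of this kind make, had changes of 0.12 and 0.16 with intervals that hold 0. For Kupffer cell markers the median was 0.17 (10 of 10 genes above 0, from 0.10 for *Vsig4* to 0.44 for *Folr2*) and summed to 401.84 and 351.68 TPM. For stellate cell markers the median was -0.14 (2 of 10 genes above 0, from -0.53 for *Rgs5* to 0.17 for *Lrat*) and summed to 281.03 and 311.92 TPM, and bile duct markers a median of -0.15 (7 of 9 genes, 2 above 0, the lowest *Epcam* at -0.59) and summed to 74.03 and 80.64 TPM. No marker of these lists was at 0 in either library. *Alb*, which is also in the periportal list, made up most of the hepatocyte sum, at 47242 TPM in the KO pool and 49729 TPM in the WT pool. Most of the bile duct sum was *Spp1*, at 57.81 TPM in the KO pool and 61.41 TPM in the WT pool. In whole liver, more pericentral cells and more RNA of these genes per cell cannot be told apart, and the part of these cell types in the changes above was not tested.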

How the data were processed

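Liver RNA was pooled by genotype and sequenced as 1 library each. The authors aligned paired reads to mm10 with RSEM 1.2.09 and Bowtie and deposited the posterior mean TPM per gene, already scaled between the libraries, since neither column (1005325 for KO, 994702 for WT) adds up to the usual total. A second deposited table, made by the authors with EBSeq, holds a signal for each library, its reads scaled by a size factor; the columns named C1 and C2 there were read as KO and WT, as the study's own supplement names them. The columns of the authors' comparison (posterior probabilities and fold changes) were not used.

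The value of 1 read was taken as the most frequent value above 0 of each mean column, 1.16 in KO and 0.860 in WT. Within a tolerance of 0.02, 78.4% and 75.0% of values were whole reads, so no count test was run. Reads were rounded for the intervals. A pseudocount of 1 TPM was added before the log2 change. The fold limits of 1.4 and 0.6 are those in the notes of the study's supplement, whose calls also required a probability that was not used here. The intervals and the log2 ratio of scaled reads were tried on simulated libraries that held counting error only. The TPM changes and the counts past a fold were not tested in this way.

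The members and the 14 other lists were chosen with earlier results of these data known. Named are all members, the highest and lowest gene of each list above the minimum of 1 TPM, and *Pgrmc1*, *Wnt2*, *Wnt9b*, *Rspo3*, *Ctnnb1*, *Lgr4*, *Tcf7l2*, *Nkd1* and *Notum*. *Gls2*, *Alb* and *Spp1* were added after their values were seen. The highest gene of 2 lists is not reported here. One hepatocyte marker symbol of 10 was not in the table. Genes with a similar pattern were not sought, since 2 libraries give none. Promoters and coordinates are from RefSeq on GRCm38.p6, the assembly of mm10, and shared windows from GENCODE transcripts. Alternatives were a pseudocount of 0.1 TPM, the means in place of TPM, other fold limits, other minimum levels, centring on the median gene and a rescaling that left out the 50 most abundant genes. Intervals were computed with scipy 1.17.1 in Python 3.11.15, tables with pandas 2.3.3 and numpy 2.4.6, and plots with matplotlib 3.10.9.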

Additional observations from a re-analysis of the deposited data

How the results depend on the processing

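No paired analysis was possible because a genotype is 1 library, and for that reason none was left out. The median change of the 10 genes ran from 0.11 to 0.16 under the 6 alternatives run on it. The alternative with a minimum of 1 TPM kept all 10 genes and so repeated the main value. These moves, and those of the single changes in all 40 comparisons, were smaller than the counting error. Here the measure of counting error was the width of the 95% interval on either side, and for a median, the median of these. For the 10 genes that measure was larger than the median change itself. A median of 0 would have been within it too, so staying within it says little. The change of *Znrf3* ran from -0.01 to 0.02, so it has no direction, and with the authors' means all 10 genes were above 0. The number past 1.4-fold upward went from 3 to 4 with 0.1 TPM and with the authors' means, which added *Lgr5*. It was 0 with limits of 2 and 0.5, and 0 among genes whose mean reached 10 TPM, since the genes past the limit all lie below that level. The number past the lower limit was 0 under all 9 alternatives. Under every scaling the median of all genes was within -0.01 and 0, so the scalings put the changes to little test. Of 83 medians of other lists, 2 moved by more than the counting error, both of hepatocyte markers, but the intervals of low genes are wide, and several medians moved by over 1.5 times. With no filter on low values the median went to 0.11 for general targets, 0.01 for inhibitors, 0.01 for Wnts and R-spondins, and -0.04 for TCF/LEF factors and co-factors. The general targets stood at 0.41 with the authors' means. At a minimum of 10 TPM the inhibitors were *Notum* alone, at 0.41, and the bile duct markers were *Spp1* alone, at -0.09. No TCF/LEF factor reached that level, and their co-factors that did had a median of 0.02. Receptors and the genes of glutamate and ammonia stayed within -0.04 and 0.01, and the receptor median changed sign with the authors' means, after centring and with no filter. Depth limits genes such as *Axin2*, whose interval holds 0.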
